A study of Mus musculus with 6 samples.

Results

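The genes described here are the axon guidance ligands and receptors of immortalized mouse fibroblasts (MF). They comprise the netrins with their receptors DCC, neogenin and UNC5, the Slits with the Robo receptors, the semaphorins with neuropilins and plexins, and the ephrins with the Eph receptors. Members were chosen by gene symbol from the deposited table, and 64 of its 19078 genes matched. The set was put together around *Dcc*, which had been picked from a fold change between the groups that the authors computed. That column and its p-values are not used here, so no difference between the groups is given for any member. Of 70 protein-coding mouse genes whose symbols fit the rule in the GENCODE M21 annotation, 6 were not analysed here: *Epha3*, *Epha5*, *Epha6*, *Epha10*, *Sema6d* and *Unc5a*.

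RNAseq was performed on poly(A)-selected RNA of 3 *Ms4a15* OE and 3 control libraries. *Ms4a15* OE cells are a pooled MF line in which a lentiviral guide directs a CRISPR activator to the cell's own *Ms4a15* gene. The sample labels call the control genotype wild type, and the study describes controls as infected with an empty lentivirus. According to its methods, the mouse line behind both groups was made from immortalized embryonic fibroblasts with conditional *Gpx4* -/- alleles and Cre-ERt2. *Ms4a15* itself had a mean of 638 normalized counts, and as a mean over both groups this value cannot check the labels. For each gene 1 value was used, the authors' mean of normalized counts over all 6 libraries, in which each library's reads are divided by its size factor to correct for depth. Both groups enter this mean alike, so it cannot show which group a transcript came from. Fewer cells that express a gene and less RNA per cell cannot be told apart in such bulk libraries. No spread between libraries goes with the means, and all comparisons of levels below carry counting precision only.

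Axon guidance cues are secreted or membrane-bound proteins that steer growing axons by attraction or repulsion. Netrins attract through DCC and repel through UNC5 receptors, Slits repel through Robo receptors, semaphorins act on plexins, often with a neuropilin as co-receptor, and ephrins signal through Eph receptor tyrosine kinases on touching cells. The same proteins act outside the nervous system, where they control cell migration, adhesion and the growth of blood vessels. DCC, neogenin and UNC5 are also known as dependence receptors, which can trigger cell death when no ligand is bound.

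The promoters of 4 members of the ephrin system are shown because genes of the same family stood at opposite ends of the range of levels. This held among the ephrins and among the Eph receptors. *Efnb2* and *Epha2* were among the abundant transcripts, whereas *Efna2* and *Epha7* had 1 read each. The sequences are the 250 bases before the annotated start, from RefSeq on GRCm38.p6, 5′ to 3′ on the strand of the gene, and no annotated exon covers any of these bases. Capitals mark each CG pair, the site of CpG methylation. They lie at chr8:8661243-8661492 (reverse strand), chr10:80179232-80179481 (forward strand), chr4:141300971-141301220 (forward strand) and chr4:28812881-28813130 (forward strand).
Efnb2: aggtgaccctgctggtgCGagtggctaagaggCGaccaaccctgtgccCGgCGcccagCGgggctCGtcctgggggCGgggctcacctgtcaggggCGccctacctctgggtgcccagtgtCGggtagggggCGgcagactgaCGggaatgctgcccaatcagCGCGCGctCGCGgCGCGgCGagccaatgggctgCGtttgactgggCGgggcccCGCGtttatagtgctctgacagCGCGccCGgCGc
Efna2: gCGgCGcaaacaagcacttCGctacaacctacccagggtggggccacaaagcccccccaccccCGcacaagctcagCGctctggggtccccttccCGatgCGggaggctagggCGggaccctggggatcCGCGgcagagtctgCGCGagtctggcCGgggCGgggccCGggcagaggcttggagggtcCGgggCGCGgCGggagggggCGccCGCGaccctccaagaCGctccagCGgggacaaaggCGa
Epha2: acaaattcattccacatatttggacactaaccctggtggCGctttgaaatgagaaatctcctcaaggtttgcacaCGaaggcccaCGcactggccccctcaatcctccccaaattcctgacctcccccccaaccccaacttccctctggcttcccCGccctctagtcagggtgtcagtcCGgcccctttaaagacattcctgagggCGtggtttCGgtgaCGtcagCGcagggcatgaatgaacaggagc
Epha7: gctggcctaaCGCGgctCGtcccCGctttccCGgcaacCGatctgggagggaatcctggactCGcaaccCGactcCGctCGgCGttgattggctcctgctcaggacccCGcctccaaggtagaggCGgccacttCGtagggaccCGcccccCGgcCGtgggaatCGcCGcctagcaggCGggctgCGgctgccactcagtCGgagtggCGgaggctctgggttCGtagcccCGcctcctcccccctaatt
These windows hold 27 CG pairs for *Efnb2*, 25 for *Efna2*, 9 for *Epha2* and 25 for *Epha7*. *Epha7* thus had more pairs than the far more abundant *Epha2*. For *Epha7* the start with the most CG pairs was taken of 2 annotated ones, whereas the other genes shown have 1 each. *Ephb1*, the third gene of the system with 1 read, is not shown, and it held 14 pairs in the 300 bases around its start, against 31 for *Efna2* and 28 for *Epha7*.

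Fibroblast identity was checked with 12 marker genes. *Col1a2*, a chain of type I collagen, had a mean of 135155 normalized counts, *Vim* (vimentin) 115135 and *Fn1* (fibronectin) 114243, and 10 of the 12 were at 100 or more. *Lum* and *Dcn*, which encode the matrix proteoglycans lumican and decorin, were the exceptions at 0.675 and 12.1. Of 10 neuronal markers 6 were in the table, led by the tubulin gene *Tubb3* at 2463 and *Gap43* at 152, while the neuronal RNA-binding protein genes *Elavl3* and *Elavl4* were at 2.27 and 0.188. A mean of at least 10 was reached by 11 of the 12 fibroblast markers and by 3 of these 6 neuronal markers. Over the table, 67.7% of all genes and 74.0% of protein-coding genes reached that mean. It was also reached by 4 of 6 endothelial markers, where *Tek* and *Kdr* were at 1.38 and 1.36 and *Flt1* at 147. Of 6 epithelial markers 2 reached it, with *Epcam* at 0.176 and *Krt14* at 170. Of 6 myeloid markers 5 were in the table and 4 reached it, with *Ptprc* at 11.1 and *Cd14* at 374. Of 6 glial markers 5 were in the table and 2 reached it, of which *Mbp* at 44.0 was highest. The endothelial and myeloid shares, 66.7% and 80.0%, lay near those over the table. The part of any other cell type in the levels given below was not tested.

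The depth behind the means could be read from the lowest values. The lowest means recurred at 6 values between 0.147 and 0.188, each the worth of 1 read in 1 library, and the corresponding size factors ran from 0.887 to 1.14. The 3097 genes with a mean under 1 were all sums of whole reads on these 6 steps, each in a single way. The libraries behind the steps were not assigned to groups. A floor of 3 reads in 1 library corresponds to a mean of 0.440 to 0.564.

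Over the 64 members the median of the means was 187 normalized counts, beside 237 for all genes of the table and 644 for its protein-coding genes. A mean of at least 10, taken here as detected, was reached by 47 members or 73.4%, against 67.7% of all genes and 74.0% of protein-coding genes, so the share of detected members was near the background. At 1000 or more there were 16 members, 25.0% of the set, against 43.2% of protein-coding genes. At the other end, 17 members were under 10 and 6 of them under 1. The levels thus ran from 0.147 for *Ephb1* to 16194 for *Plxna1*. By mean count, which also grows with transcript length, the 6 highest members, *Plxna1*, *Plxnb2*, *Unc5b*, *Nrp2*, *Neo1* and *Epha2*, are all receptors and held 65.2% of the summed means of the set. Of 30 receptors 10 were at 1000 or more, and of 34 ligands 6. Receptors thus led only at the upper end. The median was 187 for ligands and 150 for receptors. A mean of at least 10 was reached by 26 of 34 ligands and 21 of 30 receptors, the larger share being that of the ligands. At 100 or more the ligand share was again larger, with 21 of 34 ligands and 15 of 30 receptors.

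**Figure D1:**
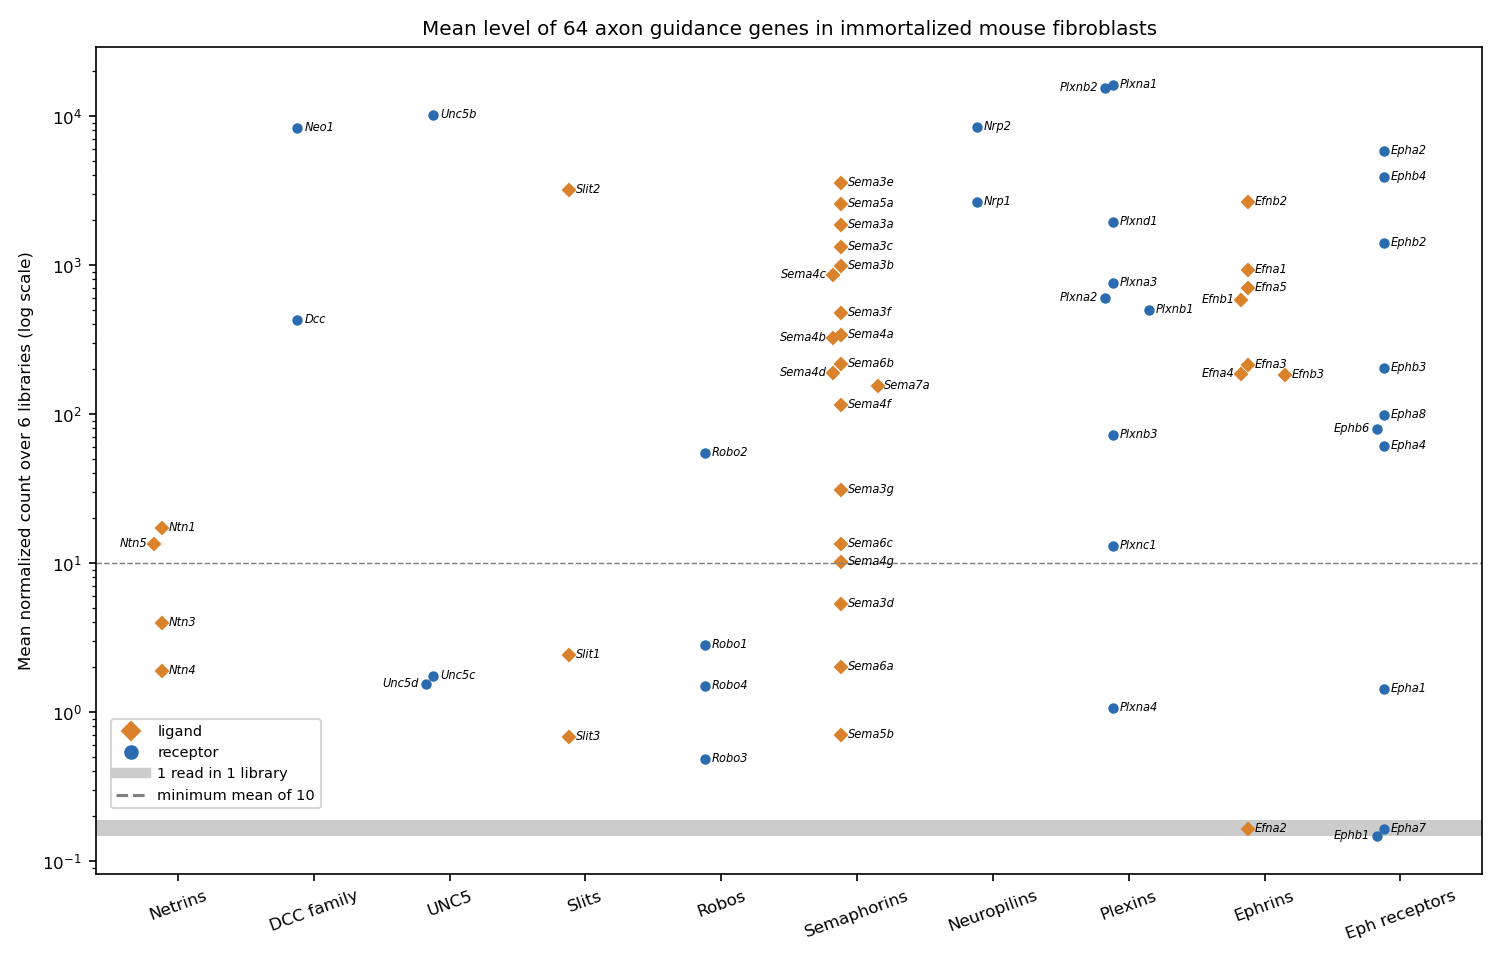
Mean normalized count over all 6 libraries (log axis) of each of the 64 members, in columns by class, with diamonds for ligands and circles for receptors. The grey band marks 1 read in 1 library (0.147 to 0.188) and the dashed line a mean of 10, with *Plxna1* highest at 16194 and *Efna2*, *Epha7* and *Ephb1* inside the band.

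**Figure D2:**
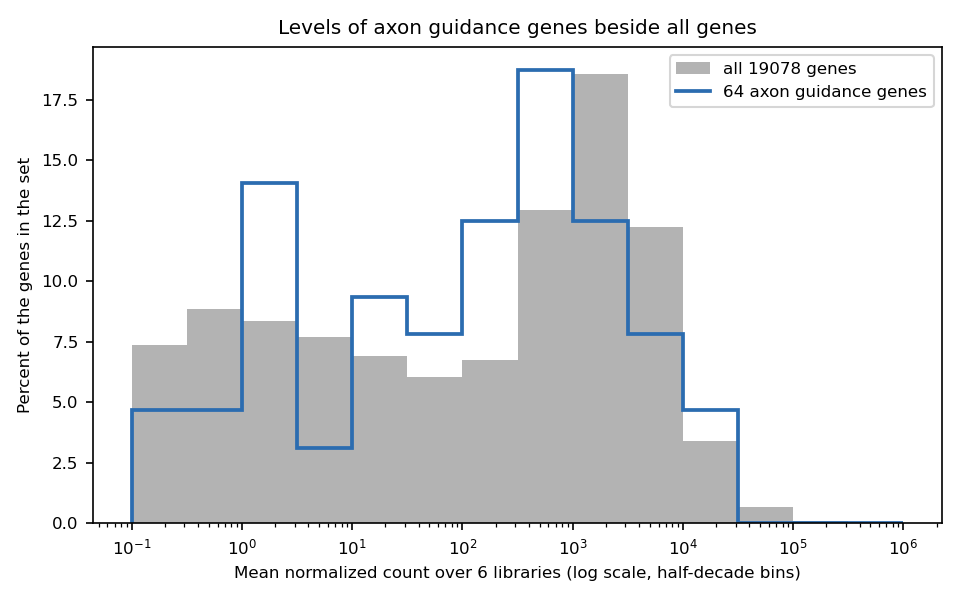
Percent of genes in each half-decade of mean normalized count (log axis), as filled bars for all 19078 genes of the table and as a line for the 64 members. Members span 0.147 to 16194, with 25.0% of them at 1000 or more against 35.0% of all genes.

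Among the netrin receptors, 2 were abundant and *Dcc* was intermediate in the mean over both groups. *Unc5b*, a repulsive netrin receptor also known from blood vessels, had a mean of 10150 normalized counts, above 95.9% of the table's genes. *Neo1* encodes neogenin, the only close paralog of DCC, which binds netrins and repulsive guidance molecules, and had a mean of 8319. *Dcc*, the attractive netrin receptor, had a mean of 428, which lies near the middle of the table at the 54.7th percentile and stands for between 2277 and 2918 reads over the 6 libraries. In GRCm38 the gene spans 71253634 to 72351069 of chromosome 18, on the reverse strand. Per kilobase of coding length *Unc5b* was at 3580 normalized counts, *Neo1* at 1859 and *Dcc* at 98.6. Levels of different genes are only roughly comparable on this scale, since ratios between them moved with the length used. *Neo1* was therefore 18.9 times as high as *Dcc* per coding length and *Unc5b* 36.3 times. Per kilobase of the longest annotated transcript these ratios were 27.2 and 41.7. As *Dcc* was picked from a fold change, its mean may lie away from the level in either group. The *Dcc* ratios and shares here and below describe that mean only.

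The remaining UNC5 receptors of the table rested on few reads. *Unc5c* had 11 reads over the 6 libraries (exact 95% Poisson interval 5.49 to 19.7, counting error only), spread over 5 libraries with at most 5 in any. *Unc5d* had 9 reads (4.12 to 17.1), also over 5 libraries. The intervals of these receptors overlap, so their order is not resolved. Of the netrin receptor signal per length, *Unc5b* held 64.6%, *Neo1* 33.6% and *Dcc* 1.78%.

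Their ligands were sparse by comparison. *Ntn1*, the canonical DCC ligand netrin-1, had a mean of 17.2 normalized counts and *Ntn5* one of 13.4. *Ntn3* had 23 reads in all (14.6 to 34.5), found in each of the 6 libraries, and *Ntn4*, a laminin-binding netrin of basement membranes, had 11 (5.49 to 19.7). No netrin reached a mean of 100. Per kilobase of coding length *Ntn1* stood at 9.49 normalized counts and *Ntn5* at 9.90, a ratio of 0.959 that the unequal transcript lengths move to 0.383 when the longest annotated transcript is used. *Dcc* was 10.4 times as high as *Ntn1* per length, *Neo1* 196 times and *Unc5b* 377 times, and with the longest transcript as length these ratios were 14.2, 385 and 590. Part of *Ntn5*'s annotated exons (519 bases) lie opposite exons of *Sec1*, and 89 bases of *Ntn3* are shared with *Tbc1d24* on the same strand. The means of *Ntn5* and *Ntn3* may therefore depend on how reads there were assigned.

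Of 12 listed relatives and partners of the netrins and their receptors, 10 were in the table and 7 had a mean of at least 100 normalized counts, not corrected for length. These 70.0% lie near the 64.6% of all protein-coding genes of the table at that level. *Flrt2*, which encodes a ligand of UNC5 receptors, was at 4615, and its relative *Flrt3* was at 340. *Rgmb* and *Rgma*, ligands of neogenin, were at 589 and 184. *Cdon* and *Boc*, cell surface proteins related to the Robo and DCC receptors, were at 2263 and 192, and *Lrig3* was at 706. *Dscam*, a netrin co-receptor of neurons, was at 0.297, and *Ntng2*, which encodes a membrane-anchored netrin-G, at 0.622.

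In the Slit system the ligand was abundant and the receptors were sparse. *Slit2* had a mean of 3151 normalized counts. *Slit1* had 15 reads in all (8.40 to 24.7), and *Slit3* had 4 (1.09 to 10.2) in 2 libraries. *Robo2* had a mean of 54.2, and *Robo1* had 17 reads over all 6 libraries (9.90 to 27.2), of which 2 libraries held 7 and 6. *Robo4*, the Robo of endothelial cells, had 9 reads (4.12 to 17.1), and *Robo3*, known from commissural neurons, had 3 (0.619 to 8.77). *Robo2* held 91.2% of the Robo signal per length. *Slit2* was 57.0 times as high as *Robo2* per kilobase of coding length. In the netrin system 3 of the 5 receptors, *Unc5b*, *Neo1* and *Dcc*, stood above all 4 ligands on this scale. *Unc5c* (0.614) and *Unc5d* (0.539) had the lowest values. With 11 and 9 reads, their order against *Ntn4* (0.994, 11 reads) is not resolved.

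**Figure D3:**
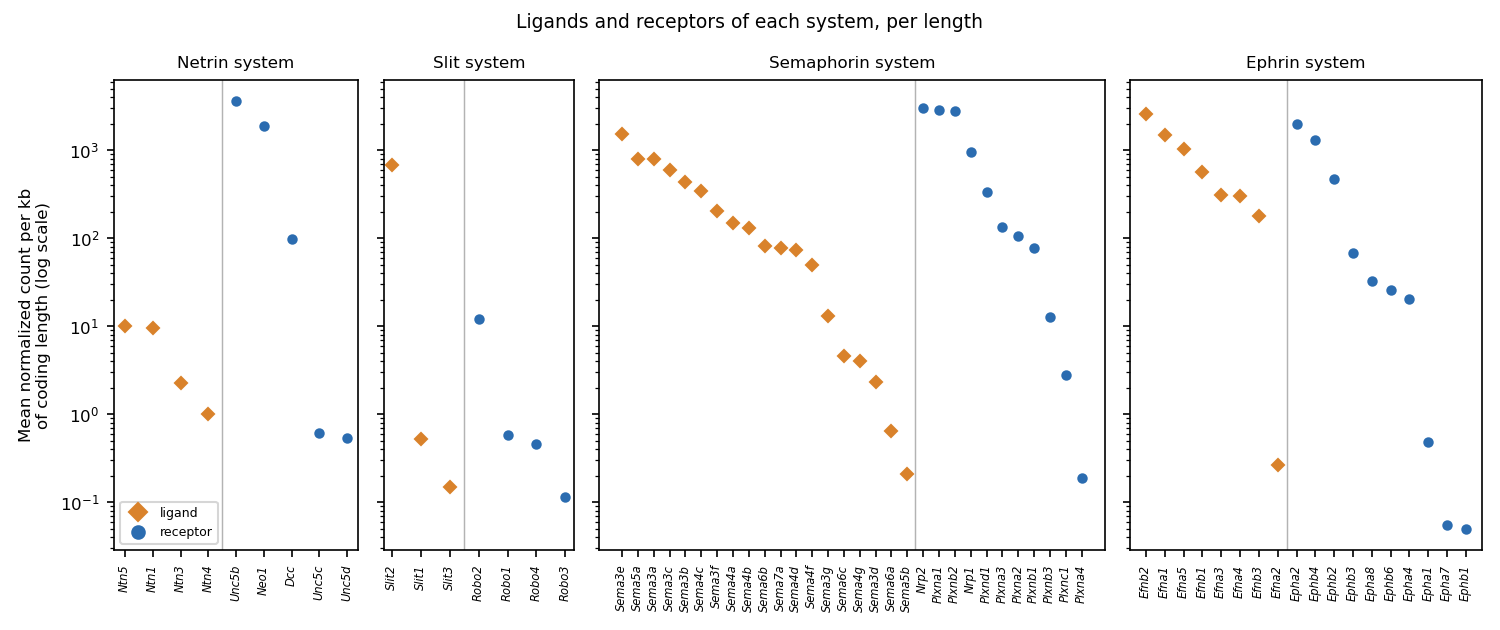
Mean normalized count per kilobase of coding length (log axis) of the ligands (diamonds, left of each grey line) and receptors (circles, right) of the 4 systems, each ordered from high to low. In the netrin system *Unc5b* (3580) and *Neo1* (1859) stand far above *Ntn5* (9.90), and in the Slit system *Slit2* (681) stands above all 4 Robo receptors.

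Most semaphorins and plexins reached a mean of at least 10 normalized counts, as did 74.0% of protein-coding genes. At 100 or more, the shares were 68.4% of semaphorins, 66.7% of plexins and 64.6% of protein-coding genes. Of the 9 plexins 8 had a mean of at least 10 normalized counts, among them *Plxna1* at 16194 and *Plxnb2* at 15422. *Plxnd1*, a receptor of *Sema3e* with roles in vessel patterning, followed at 1947, *Plxna3* at 760, *Plxna2* at 599 and *Plxnb1* at 496. *Plxnb3* was at 71.9 and *Plxnc1* at 13.0, and *Plxna4* had 6 reads in all (2.20 to 13.1). Both neuropilins, the co-receptors of class 3 semaphorins, were abundant, with means of 8466 for *Nrp2* and 2650 for *Nrp1*. Per kilobase of coding length *Nrp2* (3031), *Plxna1* (2850) and *Plxnb2* (2791) were nearly level and together with *Nrp1* (957) far above the other 7 plexins, the highest of which was *Plxnd1* at 337. Per kilobase of the longest transcript the order of the first 3 turned around, with *Plxnb2* at 2374, *Plxna1* at 1793 and *Nrp2* at 1259, so it is not resolved.

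Of the 19 semaphorins 16 had a mean of at least 10, with a median of 217 normalized counts. Per kilobase of coding length *Sema3e* led at 1514, followed by *Sema5a* at 798 and *Sema3a* at 796. With the longest transcript as length *Sema3e* still led at 513, but *Sema3a* (311), *Sema3b* (288) and *Sema3c* (241) then stood above *Sema5a* (238). Among the secreted class 3, the mean of *Sema3e* was at 3519, *Sema3a*, the classic repellent of growth cones, at 1844, *Sema3c* at 1325, *Sema3b* at 984 and *Sema3f* at 476, while *Sema3g* was at 30.6 and *Sema3d* had 32 reads in all (21.9 to 45.2). Among class 5, *Sema5a* had a mean of 2570 and *Sema5b* had 4 reads in all (1.09 to 10.2). The 6 transmembrane class 4 semaphorins ranged from 10.1 for *Sema4g* to 852 for *Sema4c*, and *Sema4d*, a ligand of plexin-B1, was at 187. In class 6, *Sema6b* was at 217, *Sema6c* at 13.3 and *Sema6a* had 13 reads (6.92 to 22.2), of which 1 library held 7.

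Known pairs of a semaphorin and its receptor differed in balance. *Sema3e* was 4.49 times as high as *Plxnd1* per kilobase of coding length and 1.82 times per kilobase of the longest transcript. *Sema7a*, a lipid-anchored semaphorin with a mean of 153, was 28.0 times as high as its receptor *Plxnc1* per length. *Sema4d* was at 0.930 of *Plxnb1* per coding length and at 0.729 per longest transcript. *Sema3a* was at 0.832 of *Nrp1* per coding length and at 0.422 per longest transcript.

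Ephrins and Eph receptors were present on both sides. *Epha2*, an Eph receptor widespread outside the nervous system, had a mean of 5814 normalized counts, *Ephb4*, the partner of ephrin-B2 in the vessel wall, 3861 and *Ephb2* 1402. *Ephb3* was at 202, and *Epha8*, *Ephb6* and *Epha4* lay between 60.8 and 98.1. *Epha1* had 8 reads in all (3.45 to 15.8), and *Epha7* and *Ephb1* had 1 read each (0.025 to 5.57). *Epha1* shares 236 exon bases with *Zyx* on the opposite strand. *Epha2* held 50.9% of the Eph receptor signal per length and *Ephb4* 33.2%.

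Of the 8 ephrins 7 (87.5%) had a mean of at least 100, against 64.6% of protein-coding genes. Of the 10 Eph receptors 4 (40.0%) did, a share below that of protein-coding genes. *Efnb2* was at 2618, *Efna1* at 922, *Efna5* at 699, *Efnb1* at 582, *Efna3* at 214, *Efna4* at 186 and *Efnb3* at 183, and *Efna2* had 1 read. Per kilobase of coding length *Efnb2* (2597) and *Efna1* (1499) led the ligands. Which side stood higher depended on the length used. *Epha2* was at 0.764 of *Efnb2* per kilobase of coding length, but 2.22 times as high without division by length and 2.72 times per kilobase of the longest transcript. *Ephb4* over its ligand *Efnb2* likewise went from 0.498 per coding length to 1.63 per longest transcript.

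Several members are neighbours in the genome, with 26 of the 64 lying in 11 groups in which the next member was within 2 Mb (GRCm38). Neighbours could differ widely in level. On chromosome 5, *Sema3d* (12383385 to 12588948), *Sema3a* (13125414 to 13602565) and *Sema3e* (14025276 to 14256689) are adjacent on the forward strand, with means of 5.33, 1844 and 3519 normalized counts. On chromosome 3, *Efna1* (89271733 to 89281142), *Efna3* (89313899 to 89322965) and *Efna4* (89333390 to 89338028) follow each other on the reverse strand, with means of 922, 214 and 186. On chromosome 9, *Sema3b* (107597674 to 107609229) and *Sema3f* (107681500 to 107710475) were at 984 and 476, and *Robo4* and *Robo3*, side by side on the same chromosome, were both under 2. On chromosome 16, *Robo1* (72308306 to 73046095) and *Robo2* (73891839 to 74411825) were at 2.79 and 54.2. Exons of 15 members overlap another annotated gene, in 12 cases on the opposite strand, the largest stretch being 970 bases of *Plxna1*, and the strand setting of the counting is not given in the sources used here. The sample labels describe the libraries as strand-specific and the paper names a library guide without stating strand, so reads of these 12 members and of their antisense partners may not have been told apart.

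Promoter sequence was compared with level for the 54 members (84.4%) found in the RefSeq promoter table. The window runs from 250 bases before to 50 after the start, and the letters counted were CG, which reads the same on both strands. Members held a median of 23 CG pairs, against 20 over the 11206 genes of the deposited table that matched. At least 10 pairs were found in 46 of the 54 members or 85.2%, and in 75.1% of all matched genes. Of the 13 members with a mean under 10, 11 (84.6%) held at least 10 pairs, among them *Slit3* with 41, *Efna2* and *Ntn4* with 31 each, *Epha7* with 28 and *Sema5b* with 27. The other two were *Robo4* with 2 and *Sema3d* with 8. Over all 2803 matched genes with a mean under 10 the share was 41.7%, and over the 2675 protein-coding ones 41.4%. At a mean of 10 or more, the shares were 85.4% of 41 members and 86.2% of all matched genes. The 6 members at 10 or more with fewer than 10 pairs were *Sema3a* with 2, *Sema4d* and *Ntn5* with 3 each, *Plxnb3* with 4, *Sema4f* with 7 and *Sema3g* with 8. The windows of *Sema3a* (chr5:13396534-13396833) and *Sema4d* (chr13:51739397-51739696) lie inside the GENCODE spans of these genes. This is not particular to windows with few pairs. The window of *Robo1* (chr16:72662899-72663198), a member under 10 with 15 pairs, also lies inside its gene. So do, among others, those of *Efna1*, *Efna3*, *Sema4a*, *Sema4b*, *Sema4c* and *Plxna2*, each with at least 10 pairs. Which start the cells used was not measured. These shares are descriptions without a test, and no methylation or chromatin was measured.

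**Figure D4:**
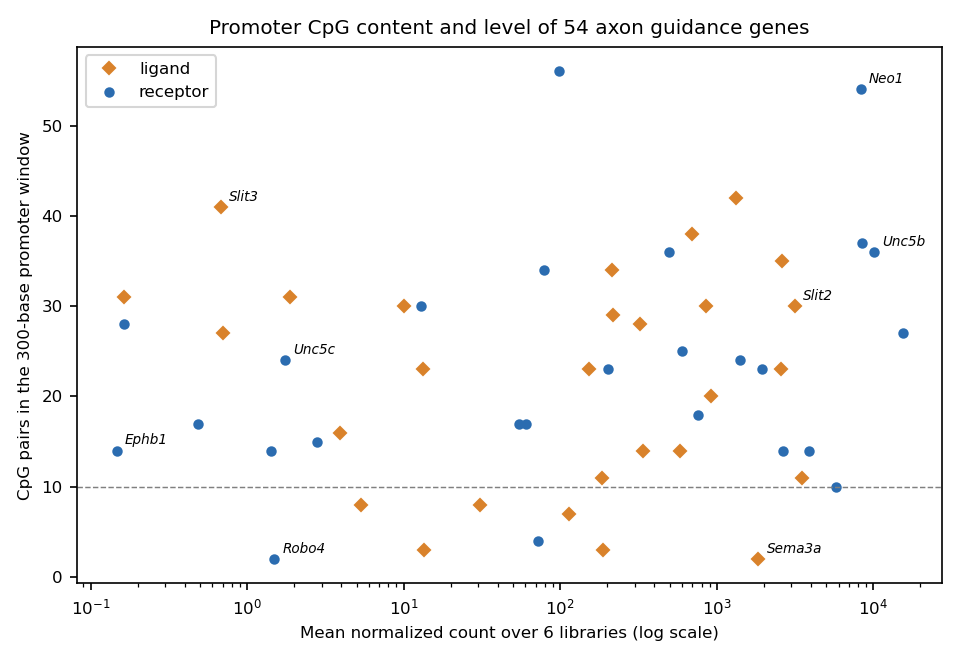
Number of CpG pairs in the 300-base promoter window (y axis) against mean normalized count over 6 libraries (log x axis) for 54 members, with diamonds for ligands and circles for receptors. Most points lie above the dashed line at 10 pairs at every level, from *Slit3* (41 pairs, 0.682) to *Neo1* (54 pairs, 8319), with *Robo4* and *Sema3a* at 2. The *Sema3a* window lies inside the annotated span of the gene, as do several windows above the line.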

How the data were processed

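The 3 *Ms4a15* OE and 3 control libraries were grouped by the sample labels. The authors mapped reads to mm10 and assigned them to genes with HTSeq-count. The paper names STAR as aligner, and the submitters' processing notes list TopHat, Cufflinks and Cuffdiff. Labels and paper also differ in the RNA kit, the library guide and the read length. The signal used is the authors' deposited DESeq2 base mean, that is, size-factor-corrected reads averaged across both groups. The other 5 columns hold the authors' DESeq2 comparison (log2 fold change, standard error, p-value, adjusted p-value and direction) and were not used, so no test between groups was run. Members and lists were chosen with earlier results of these data known.

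Coding lengths, longest protein-coding transcripts and positions came from GENCODE M21 (GRCm38, the same assembly as mm10), whose gene models may differ from the authors' annotation. Where a gene has several starts, the promoter with the most CG pairs was taken. Reads behind means under 6 were recovered by enumerating whole numbers of reads in 6 libraries, and this was tested on simulated data, where 196 of 199 simulated means had a single solution, each the true one. Intervals are exact Poisson at 95% and cover counting error only. PCR copies were not identified, so reads are not independent molecules. All members may be named, and those highest, lowest or at or under 3 reads are. Computations used Python 3.11.15, numpy 2.4.6, pandas 2.3.3, scipy 1.17.1 and matplotlib 3.10.9.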

Additional observations from a re-analysis of the deposited data

How the results depend on the processing

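No paired analysis was possible because the value used for each gene is a mean across all libraries, and for the same reason the planned count test, its scaling, its low-count filter and leaving out each replicate were not run. The count of 47 members with a mean of at least 10 became 58 at a minimum of 1 and 36 at 100, and 37 without the 15 members that share exon bases with another gene, an alternative chosen after seeing the data. The median level of 187 rose to 496 among members with a mean of at least 10, since the lowest members drop out by construction. Without division by length, the share of *Unc5b* among netrin receptors went from 64.6% to 53.7% and that of *Nrp2* among semaphorin receptors from 29.4% to 18.2%, with *Plxna1* then first at 34.7%, while *Epha2* among Eph receptors went from 50.9% to 50.5%. The minimum of 10 leaves *Robo2* as the only Robo, at 100%. *Unc5b* over *Ntn5* was 362 per coding length, 756 without length and 226 per longest transcript, *Nrp2* over *Sema3e* rose to 2.41 without length and 2.46 per longest transcript, and *Robo2* over *Slit2* was 0.0175, 0.0172 and 0.0199. *Epha2* over *Efnb2* turned around, from 0.764 to 2.22 and 2.72. These shifts follow from the lengths alone. Choosing the start with the fewest CG pairs, also added after seeing the data, left 11 of 13 low members with at least 10 pairs and 36.0% of all low genes. Depth limits the members under 6, which rest on 1 to 32 reads.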

Other observations

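Most genes of a list of 40 signalling partners and cell surface proteins linked to these receptors were present. Of the 40, 35 reached 100 normalized counts and 29 reached 1000, not corrected for length. These are 87.5% and 72.5% of the list, against 64.6% and 43.2% of the protein-coding genes of the table. The GTPase genes *Rac1* and *Cdc42*, which reorganise the actin cytoskeleton, were at 20809 and 18287. *Trio*, an exchange factor that acts on Rac in netrin signalling, was at 9058, *Ptk2*, the focal adhesion kinase bound by DCC, at 5617, and the kinase genes *Src* and *Fyn* at 3092 and 2306. *Arhgef12*, which links class B plexins to RhoA, was at 5605. Of the Slit-Robo GTPase-activating proteins, *Srgap2* and *Srgap3* were at 3808 and 2712 and *Srgap1* at 1.35. *Gpc1* and *Sdc1*, heparan sulfate proteoglycans of the cell surface, were at 16622 and 6931. The 5 genes under 10 were *Crmp1*, *Srgap1*, *Vav3*, *L1cam* and *Chl1*, the last at 0.147, the worth of 1 read.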
